A study of Mus musculus with 6 samples.

Results

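Chromosome 6 accessible regions are stretches of mouse chromosome 6 in which every one of 6 ATAC-seq libraries of embryonic stem cells had a called peak. Joining the peaks of the 6 lists wherever they shared 1 bp or more gave 259376 mouse regions. Of these, 15876 lay on chromosome 6, and 5905 of those were called in all 6 libraries; these 5905 are the members described here. They make up 5.95% of the 99216 regions called in all libraries. The 31464 such regions on chromosomes 1 to 5 served as the reference. The members were selected on their peak calls, and the chromosome was chosen by its summit heights, which were already known to differ between genotypes in these same libraries. The genotype differences are therefore given as descriptions, without tests. With 2 libraries against 2, no exact two-sided test of a single value could give a p below 0.333 in any case.

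ATAC-seq marks open DNA because the transposase Tn5 inserts adapters where nucleosomes and other proteins leave the DNA free, so that promoters and enhancers appear as peaks of inserted tags. In bulk samples like these, a change in all cells and a change in some of them cannot be told apart. Mouse chromosome 6 carries loci that matter in stem cells. Among them are the Nanog, Dppa3 and Gdf3 locus, where Nanog is a core pluripotency transcription factor, the Hoxa cluster of body-axis regulators, Ezh2, the catalytic subunit of Polycomb repressive complex 2, and Tet3, an oxidase of methylated cytosine. In RefSeq's gene order along the chromosome (GRCm38.p6), the imprinted genes Sgce and Peg10 come first of these, followed by Ezh2, the Hoxa genes, Tet3 and Nanog. The peak lists use another build, GRCm39, so no gene was placed on a region and the stem cell markers and the Alkbh5 locus were not checked. No DNA sequence of a region was used here.

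The cells were E14TG2a, an established mouse embryonic stem cell line. All 6 libraries were grown in the same medium, with 15% serum, 1000 U/ml LIF, 1 µM of the MEK inhibitor PD0325901 and 3 µM of the GSK3 inhibitor CHIR99021. Spike-in nuclei (10 µl) were added to every sample before transposition. The 3 genotypes were wild type (WT), Alkbh5 KO, written Alkbh5-/- in the series design, and Alkbh5 del-cIDR, with 2 libraries each. ALKBH5 removes N6-methyladenosine from RNA, and IDR stands for intrinsically disordered region. Nothing in the labels says that a genotype is more than 1 clone, or that its replicates came from different cultures. The spread between replicates may thus be technical, and genotype and clone cannot be told apart.

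The lists held 184884 and 193905 mouse peaks in WT and 150680 to 164639 in the 4 mutant libraries. A height is the number of tags piled up at the tallest summit of a region, solved from the fold and p of the peak in the authors' list. Members had a median height of 31.5 tags averaged over the 6 libraries, close to the 31.2 tags of the reference regions, and a median width of 551 bp against 550 bp. They covered 3656 kb between positions 3151873 and 149467900 (GRCm39), with a median gap of 10288 bp from one member to the next.

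Within each list, summits on chromosome 6 stood higher in KO and lower in del-cIDR than in WT. The median member height was 30 tags in WT replicate 1 and 34 in WT replicate 2, against reference medians of 32 and 36 tags in the same lists. For KO, member medians of 40 and 31 tags stood beside reference medians of 33 and 25. For del-cIDR, the members had a median of 27 tags and the reference 31, in either library. Chromosome 6 was thus below the reference in both WT and both del-cIDR libraries and above it in both KO libraries. As a log2 ratio of medians, the level was -0.09 ± 0.0075 in WT against 0.29 ± 0.023 in KO, with -0.20 in both del-cIDR libraries (SD, n = 2).

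Ranks within the lists also set KO apart. Among all regions called in the 6 libraries, the median member stood at the 46.0 and 46.7 percentile of height in WT against 56.9 and 57.1 in KO, beside 42.7 and 43.4 in del-cIDR. The share of members in the top 10% of their list was 8.91% and 9.16% in WT against 13.4% and 13.2% in KO, with 8.15% and 7.81% in del-cIDR. Members held 5.62% ± 0.0048 of the summed height of all such regions in WT against 6.96% ± 0.0013 in KO, with 5.29% ± 0.015 in del-cIDR (SD, n = 2). The genotypes did not overlap in these 3 measures. In the bottom 10% of their list stood 11.4% and 12.7% of the members in WT and 4.89% and 5.13% in KO, and here the 14.3% and 11.6% of del-cIDR overlapped WT.

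For differences between genotypes, the mean of a region's 6 log2 heights was subtracted from each of them, and then, library by library, the median over the reference regions. On this centred scale, which shows differences and not levels, the median member was at -0.095 and -0.092 in WT against 0.272 and 0.276 in KO, with -0.182 in both del-cIDR libraries. KO exceeded WT by 0.37 log2, or 1.29-fold, and del-cIDR differed from WT by -0.09 log2, or 0.941-fold. KO exceeded del-cIDR by 0.46 log2, or 1.37-fold. Both contrasts with WT share its 2 libraries. The 4 pairs of a KO and a WT library gave 0.364 to 0.370, and the 4 pairs of a del-cIDR and a WT library gave -0.087 to -0.090. Replicates of one genotype differed by 0.0039 at most. On chromosomes 1 to 5, taken one by one, KO minus WT lay between -0.012 and 0.016 and del-cIDR minus WT between -0.0068 and 0.0035. The cause of the difference on chromosome 6 was not tested.

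**Figure D1:**
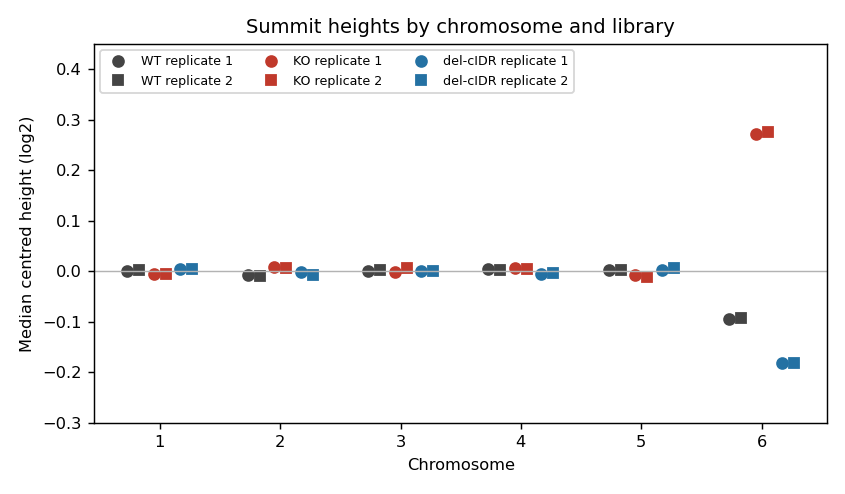
Median centred height (log2, vertical axis) of the regions called in all libraries on chromosomes 1 to 6, with 1 point per library, coloured by genotype and shaped by replicate. On chromosome 6 both KO libraries lie at about 0.27, both WT libraries at about -0.09 and both del-cIDR libraries at -0.18, while all libraries lie near 0 on chromosomes 1 to 5.

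The shift was spread over the members rather than carried by a few. KO was above WT in 4633 of the 5905 members and below in 1272, against 15692 and 15772 of the reference regions. The quartiles of KO minus WT were 0.055 and 0.62 log2 over the members, and -0.30 and 0.25 over the reference regions. The SD over regions was 0.45 on chromosome 6 and 0.44 on the reference, so the distribution was moved without becoming wider. For del-cIDR minus WT, 2227 members were above 0 and 3678 below, against 15974 and 15490 of the reference regions. The SD was 0.32 on chromosome 6 and 0.31 on the reference. A single region was measured with much less precision than the chromosome. The difference between the 2 WT libraries had an SD over members of 0.33 log2, close to the size of the KO shift.

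**Figure D2:**
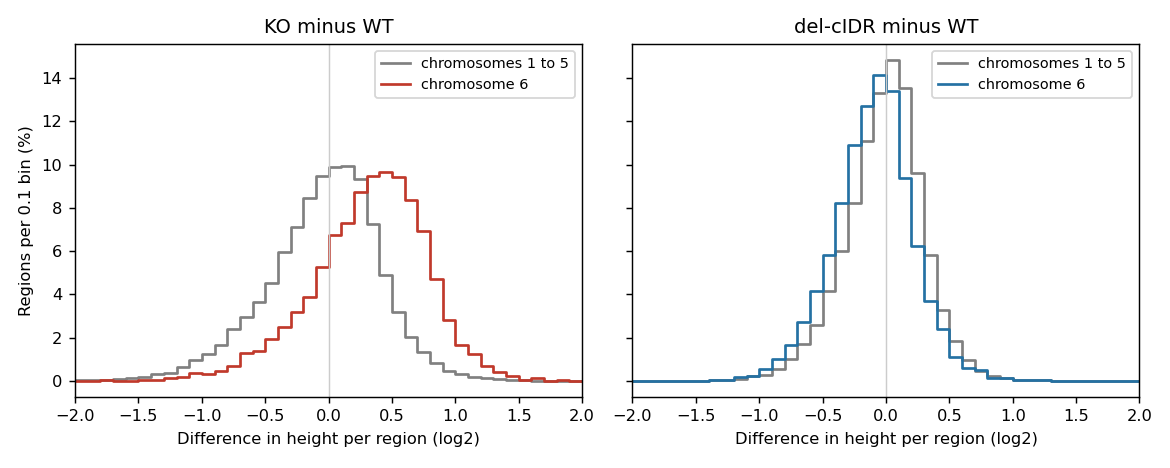
Share of regions (%, vertical axis) in bins of 0.1 log2 of the difference in centred height per region, for KO minus WT (left) and del-cIDR minus WT (right), on chromosome 6 (colour) and chromosomes 1 to 5 (grey). The chromosome 6 curve is displaced to a median of 0.36 in KO and of -0.09 in del-cIDR, with a shape close to that of the grey curve.

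A member was counted as not overlapping when both libraries of one genotype lay beyond both libraries of the other. Both KO libraries were above both WT libraries in 3493 members (59.2%), and over all regions called in the 6 libraries this share was 33.3%. Both KO libraries were below in 629 members (10.7%), against 26.1% over all regions. Both del-cIDR libraries were below both WT libraries in 1828 members (31.0%), against 22.8% over all regions, and above in 869 (14.7%), against 22.5%. KO was above del-cIDR without overlap in 3924 members (66.5%), against 33.2% over all regions, and below in 422 (7.15%), against 24.7%. The choice of the chromosome used these contrasts, so nothing further is read from the shares.

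Single members differed widely in their own direction. The members nearest to the median KO minus WT difference show what a typical case looks like. One of them, at chr6:83132823-83133660, had 60 and 65 tags in WT against 84 and 62 in KO, beside 61 in both del-cIDR libraries. The region at chr6:75947711-75948338 had 23 and 42 tags in WT against 43 and 30 in KO, beside 25 in both del-cIDR libraries. Raw tags overlapped between the genotypes in both, and the list of KO replicate 2 had the lowest heights on the reference as well. The third, at chr6:134259481-134259710, lay near the calling limit with 9 to 17 tags.

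The following regions were picked for their size of difference among those without overlap within the 4404 members averaging 20 tags or more, so their values are a description of the tails. The largest KO excess was at chr6:28860212-28860744, with 16 and 13 tags in WT against 48 and 46 in KO, beside 17 and 11 in del-cIDR. Both KO libraries stood apart from the other 4 there, by 1.86 log2 over WT on the centred scale. At chr6:56876166-56876866 the heights were 21 and 20 tags in WT against 85 and 40 in KO, beside 13 and 16 in del-cIDR. At chr6:72725468-72726488 they were 11 and 19 in WT against 46 and 37 in KO, beside 19 and 15 in del-cIDR. In these 3 regions del-cIDR overlapped WT or lay below it. At chr6:66054405-66054912 (13 and 18 tags in WT against 53 and 37 in KO, 20 and 34 in del-cIDR) and at chr6:38004831-38005090 (10 and 11, 33 and 26, 25 and 15) del-cIDR was above WT as well. Of the members chosen in this way, the last also had the largest excess of del-cIDR over WT, at 0.98 log2.

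Against the direction of the chromosome, 5 of the members chosen in this way had the lowest KO minus WT differences. At chr6:12091497-12092229 WT had 40 and 50 tags, KO 21 and 7 and del-cIDR 24 and 30, so that both mutants were below WT. The same held at chr6:39716296-39716987, with 40 and 55 tags in WT against 20 and 15 in KO, beside 23 and 27 in del-cIDR. At chr6:85865878-85866668 WT had 37 and 26 tags, KO 13 and 8 and del-cIDR 25 and 22. At chr6:23089308-23089631 KO alone was low, with 22 and 24 tags against 58 and 70 in WT and 68 and 69 in del-cIDR. KO was also alone in being low at chr6:141541209-141542225, with 19 and 13 tags against 38 and 47 in WT and 41 and 52 in del-cIDR. Their KO minus WT differences ran from -1.73 to -1.27 log2.

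Among the same members, averaging 20 tags or more and without overlap, the lowest del-cIDR minus WT difference was at chr6:72888056-72888643, with 34 and 31 tags in WT against 20 and 15 in KO, beside 14 and 12 in del-cIDR, a difference of -1.23 log2 for del-cIDR. At chr6:147225675-147226149 the heights were 32 and 38 in WT against 40 and 23 in KO, beside 16 and 13 in del-cIDR. At chr6:144594666-144595113 they were 33 and 45 in WT against 32 and 18 in KO, beside 16 in both del-cIDR libraries. At their summits these 3 regions had less than the WT height in both del-cIDR libraries. In the other direction, chr6:37975600-37976269 had 17 and 26 tags in WT against 23 and 24 in KO, beside 44 and 32 in del-cIDR, and chr6:54131043-54131471 had 14 in both WT libraries, 28 and 31 in KO, beside 18 and 33 in del-cIDR.

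Broad regions had larger KO minus WT differences than narrow ones, on chromosome 6 and on the reference alike. Width is that of the merged region. In the 62 members under 200 bp wide, the difference was 0.22 ± 0.068 log2 (SD combined from 2 and 2 libraries). It was 0.24 ± 0.0069 in the 1350 members of 200 to under 400 bp, 0.34 ± 0.0062 in the 3255 of 400 to under 800 bp, 0.53 ± 0.015 in the 1172 of 800 to under 1600 bp, and 0.66 ± 0.015 in the 66 of 1600 bp or more. The same classes on chromosomes 1 to 5 gave -0.019, -0.081, -0.034, 0.13 and 0.29 log2. Chromosome 6 minus the reference in the same width class was therefore 0.24, 0.33, 0.38, 0.395 and 0.37 log2. From 400 bp upward, the excess of chromosome 6 stayed between 0.37 and 0.395 log2. The narrowest class had the lowest excess and the largest spread between replicates.

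The median heights behind these classes show the same. Members of 200 to under 400 bp had 23 and 26 tags in WT against 29 and 22 in KO, beside 21 in both del-cIDR libraries, and reference regions of that width had 24 and 27, 24 and 18, and 23. Members of 800 to under 1600 bp had 52 and 59 tags in WT against 78 and 61 in KO, beside 50.5 and 50 in del-cIDR, and the reference 53 and 60, 60 and 47, and 55. In WT, members and reference regions of the same width were thus within 1 tag of each other in these 2 classes. In KO the members were higher in both. WT members were below the reference in the remaining classes, with 23 and 27 tags against 27 and 29 under 200 bp. They had 30 and 33 against 31 and 35 at 400 to under 800 bp, and 52.5 and 59 against 64 and 72.5 at 1600 bp or more.

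For del-cIDR minus WT, the difference was -0.12 ± 0.069, -0.11 ± 0.00070, -0.10 ± 0.0035, -0.039 ± 0.0058 and 0.042 ± 0.013 log2 from the narrowest to the broadest class. The broadest members were thus not below WT on this scale. On the reference, the same classes ran from -0.0017 through -0.038 and -0.015 to 0.062 and 0.11. Set against reference regions of the same width, the members were below WT in every class, by -0.12, -0.074, -0.085, -0.10 and -0.067 log2. As a contrast of members of at least 800 bp with members under 400 bp, KO minus WT was 0.29 log2 larger and del-cIDR minus WT 0.08 log2 larger in the broad members. Within width classes of the reference, these contrasts were 0.069 and -0.024, so most of the dependence on width was shared with chromosomes 1 to 5.

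Height gave a similar picture. Regions of 800 bp or more also had taller median heights than narrower ones. In classes of mean height divided at 20, 40, 80 and 160 tags, from the lowest to the tallest, the KO minus WT difference of the members was 0.25, 0.29, 0.38, 0.52 and 0.62 log2. The reference gave -0.049, -0.089, 0.010, 0.12 and 0.24, which leaves an excess of 0.304, 0.38, 0.37, 0.39 and 0.38 log2 on chromosome 6. The excess was lowest in the 1501 members under 20 tags, the ones nearest to the calling limit. Regions this low enter the list only when all 6 libraries reach the limit. For del-cIDR minus WT the excess of chromosome 6 was -0.061, -0.093, -0.097, -0.11 and -0.11 log2 in the same order.

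**Figure D3:**
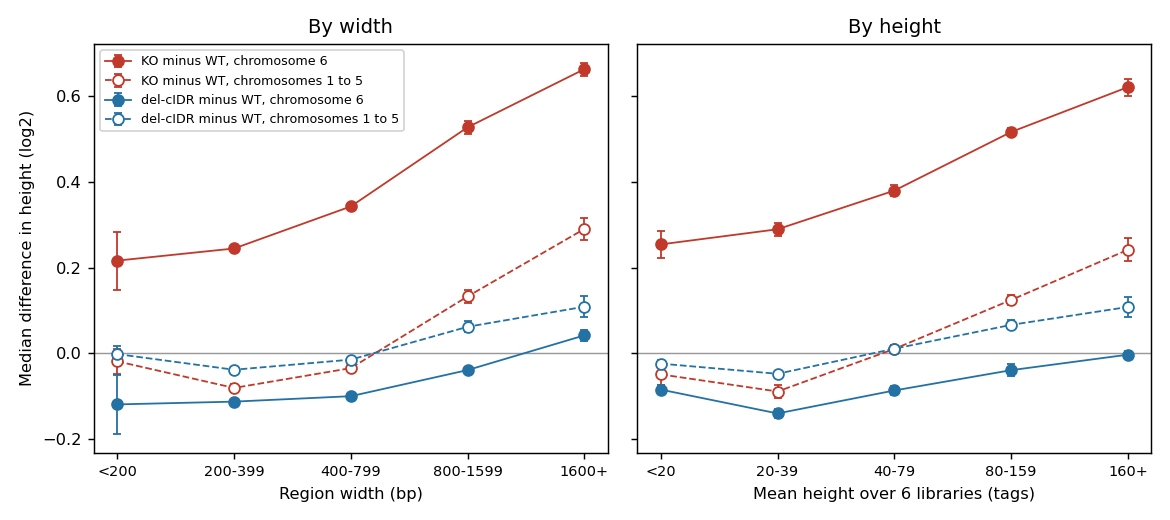
Median difference in height (log2, vertical axis) by region width in bp (left) and by mean height in tags (right), for KO minus WT (red) and del-cIDR minus WT (blue), on chromosome 6 (filled points, solid lines) and chromosomes 1 to 5 (open points, dashed lines); bars are the SD combined from the replicates of both genotypes. Leaving aside the lowest class of each panel, each pair of curves rises together. The KO curve of chromosome 6 runs 0.24 to 0.395 above its reference by width.

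Classes of width and height were also crossed. Of the 17 combinations with at least 20 members and 20 reference regions, the KO minus WT excess of chromosome 6 was positive in all 17, from 0.23 to 0.42 log2. The lowest was in members of 800 to under 1600 bp with fewer than 20 tags (142 members), and the highest in members of 200 to under 400 bp with 80 to under 160 tags (40 members). The del-cIDR minus WT excess was negative in all 17, from -0.12 to -0.036 log2. The combined classes share the same 6 libraries and are not independent of each other.

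Along the chromosome, the KO excess was present in every 10 Mb bin. The 15 bins held 168 to 628 members each, and in all 15 both KO libraries lay above the other 4 libraries and both del-cIDR libraries lay below both WT libraries. On chromosomes 1 to 5, the same was seen in 21 and 25 of 87 bins. KO minus WT ran from 0.28 to 0.41 log2 over the bins of chromosome 6, with an SD over bins of 0.045, close to the 0.043 of the reference bins. The 3 lowest bins were 140 to 150 Mb (0.28), 30 to 40 Mb (0.29) and 60 to 70 Mb (0.30), and all others lay at 0.34 or above. For del-cIDR minus WT, the bins ran from -0.14 at 100 to 110 Mb to -0.059 at 10 to 20 Mb. Relative to reference regions of the same height the bins kept a range of 0.29 to 0.41 for KO and -0.14 to -0.067 for del-cIDR. That height is the mean over all 6 libraries, so the genotypes compared also enter into the matching.

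By height, the median KO excess was somewhat larger in the distal part than in the proximal part. The 2594 members before 75 Mb had a KO minus WT difference of 0.34 ± 0.0034 log2 and the 3311 beyond 75 Mb one of 0.38 ± 0.0073 (SD combined from 2 and 2 libraries). The contrast of 0.039 ± 0.0067 was larger than its spread, but by the deposited fold it was -0.0015. The values for del-cIDR minus WT were -0.091 ± 0.0029 and -0.086 ± 0.0073, which differ by less than the spread. The excess varied little with how densely the members lay. In 1 Mb windows with under 20 regions the KO excess over reference regions of the same density was 0.34 log2, and in windows with 80 or more it was 0.37.

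At the scale of 1 Mb, 128 of the 147 windows with members had at least 10 of them. KO minus WT was above 0 in 126 of the 128, with a median of 0.37 and a range from -0.21 to 0.63 log2. On chromosomes 1 to 5, 334 of 690 such windows were above 0, with a range from -0.55 to 0.51, so single windows of the reference also strayed far from 0. Del-cIDR minus WT was below 0 in 119 of the 128 windows of chromosome 6 and in 354 of the 690 of the reference.

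The 2 windows without a KO excess lay side by side, from 35 to 37 Mb, and were singled out after their values were seen. Relative to reference regions of the same height, 127 of the 128 windows were above 0, and the one from 35 to 36 Mb was below. The 43 members from 35 to 37 Mb had centred heights of 0.12 and 0.042 in WT against -0.12 and -0.059 in KO, with -0.029 and -0.037 in del-cIDR. KO minus WT was -0.17 ± 0.072 log2 there (SD combined from 2 and 2 libraries), while the 125 members of the 2 Mb before gave 0.28 ± 0.047 and the 151 members of the 2 Mb after gave 0.29 ± 0.0063. Without overlap, KO was above WT in 8 of the 43 and below in 18, where the shares over all regions were 33.3% and 26.1%. The counts were 68 and 19 of the 125 members before, and 80 and 16 of the 151 members after. The 2 windows differed from each other. In the 29 members from 35 to 36 Mb KO minus WT was -0.21 ± 0.036 log2, with 5 above and 15 below. In the 14 members from 36 to 37 Mb it was -0.055 ± 0.088, within its spread, with 3 above and 3 below, and relative to reference regions of the same height it was 0.018. Calls were fewer in KO than in WT in this stretch and in the stretch before it. Of the 150 regions of any calling pattern from 35 to 37 Mb, 96 were called in each WT library, 75 and 72 in KO and 79 in each del-cIDR library. From 33 to 35 Mb, where KO heights were above WT, 226 and 218 regions were called in WT against 212 and 195 in KO, beside 170 and 185 in del-cIDR. From 37 to 39 Mb the numbers were 284 and 261 in WT against 284 and 254 in KO, beside 210 and 216 in del-cIDR.

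Just before 35 Mb, neighbouring members differed in direction, shown here by members picked after their values were seen. KO minus WT had an SD of 0.45 log2 over all members, so single members cannot place a boundary. At chr6:34932151-34933450 WT had 87 and 82 tags, KO 134 and 128 and del-cIDR 88 and 71, so KO was above all others and 0.79 log2 above WT. The next member, at chr6:34964878-34965360, had 26 and 31 tags in WT against 16 in both KO libraries, beside 18 and 24 in del-cIDR. The one after it, at chr6:34972159-34972784, had 128 and 146 tags in WT against 137 and 107 in KO, beside 111 and 141 in del-cIDR, a KO minus WT difference of -0.02 log2. Before the first of these, the member at chr6:34918470-34919699 was already lower in KO, with 46 and 45 tags in WT and 40 and 31 in KO. Inside the stretch, the tallest member, at chr6:35110244-35111307, had 157 and 196 tags in WT against 240 and 166 in KO, beside 176 and 183 in del-cIDR, which is 0.34 log2 for KO minus WT. Further in, chr6:35212960-35213751 had 145 and 160 tags in WT against 114 and 88 in KO, beside 151 and 159 in del-cIDR.

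A second stretch stood apart from the 2 Mb on either side in both contrasts with WT, and not in KO minus del-cIDR. In the 31 members from 61 to 63 Mb, also picked after seeing their values, del-cIDR minus WT was -0.35 ± 0.044 log2, against -0.012 ± 0.021 in the 45 members of the 2 Mb before and -0.025 ± 0.071 in the 33 members of the 2 Mb after. KO minus WT was 0.14 ± 0.074 there and 0.44 ± 0.012 and 0.36 ± 0.077 on either side. It was as low in some single windows elsewhere, although the median window had 0.37. Examples are the windows ending at 6 Mb (0.125, 50 members) and at 145 Mb (0.115, 57 members). KO minus del-cIDR, which does not use the WT libraries, was 0.49 log2 in the stretch and 0.46 and 0.39 beside it. Centred heights of WT were 0.046 and 0.075 in the stretch, -0.14 in both libraries before it, and -0.13 and -0.067 after it. Those of del-cIDR were -0.32 and -0.26 in the stretch, -0.16 and -0.13 before it, and -0.086 and -0.16 after it. Those of KO were 0.15 and 0.25 in the stretch, 0.32 and 0.30 before it, and 0.22 and 0.30 after it. Each region's mean over the libraries is removed on this scale, so it cannot show which genotype changed there.

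**Figure D4:**
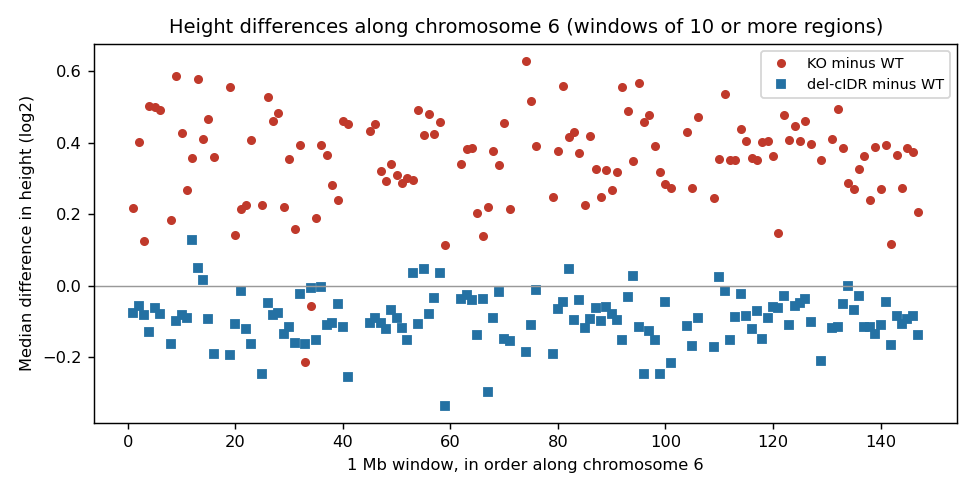
Median difference in height (log2, vertical axis) in each 1 Mb window with at least 10 members, in order along chromosome 6, for KO minus WT (red circles) and del-cIDR minus WT (blue squares). The KO points lie above 0 in 126 of 128 windows; the 2 below 0 are neighbours, and 119 of the del-cIDR points lie below 0.

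The local background around the members differed between genotypes in the same way as their summits. The background of a peak, in tags, was solved together with its height, and never falls under a floor that is fixed for each list (1.01 to 1.26 tags). Members at the floor made up 23.1% and 23.5% in WT against 16.1% and 17.3% in KO, with 27.5% and 27.1% in del-cIDR. On the reference the order was another one, with 20.4% and 20.5% in WT against 25.9% and 26.9% in KO, beside 21.5% and 21.9% in del-cIDR. In the 4005 members above the floor in all libraries, the background relative to the floor and the reference was 0.38 ± 0.0038 log2 higher in KO than in WT (SD combined from 2 and 2 libraries), a 1.305-fold difference. The summits of the same 4005 members differed by 0.35 ± 0.0067. For del-cIDR minus WT the background differed by -0.10 ± 0.0041 and the summits by -0.093 ± 0.0026. How far the peak itself adds to its local background was not tested, and the window used by the caller is not given in the sources used here.

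The fold the authors deposited sets the summit against this background, with a constant added to both, and it differed less. With that constant, an equal proportional rise of summit and background also raises the fold. How much of the fold difference comes from this construction was not tested. Its KO minus WT difference on chromosome 6 was 0.092 ± 0.011 log2 (1.066-fold) relative to the reference, and its del-cIDR minus WT difference -0.030 ± 0.0016. By fold, both KO libraries were above both WT libraries in 2167 members (36.7%), against 26.8% over all regions by the same rule. In the stretch from 35 to 37 Mb, the background of the 27 members above the floor differed by -0.14 log2 between KO and WT, alongside the -0.17 of the summits. From 35 to 36 Mb alone it was -0.18 (21 members), and from 36 to 37 Mb 0.055 (6 members).

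**Figure D5:**
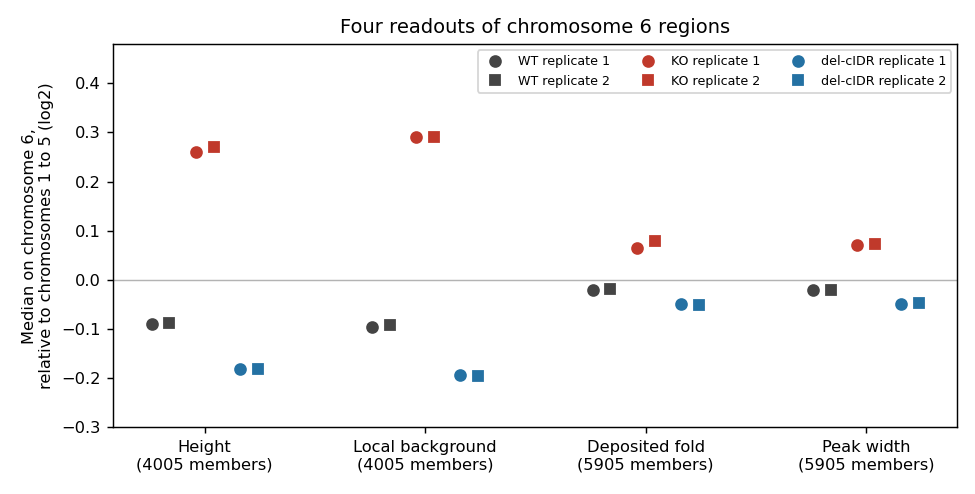
Median of 4 readouts over chromosome 6 members, relative to chromosomes 1 to 5 (log2, vertical axis), with 1 point per library: summit height and local background in the 4005 members above the background floor, and deposited fold and summed peak width in all 5905. Height and local background separate the genotypes by similar amounts, and fold and width by less.

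Peak width in a single list moved with height. The bp covered by peaks in a member had medians of 404 and 397 in WT against 435 and 425 in KO, beside 381 and 383 in del-cIDR. Relative to the reference, KO minus WT was 0.092 ± 0.0016 log2 and del-cIDR minus WT -0.028 ± 0.0019. Summit positions were alike within and between genotypes. In the 5277 members with 1 peak in every library, the median distance between the summits of 2 libraries was 20 bp within a genotype, 21 bp between WT and KO, and 22 bp between WT and del-cIDR. Summits were within 50 bp of each other in 72.9% of the pairs within a genotype and in 72.9% of the pairs of WT and KO. The KO minus WT difference was 0.36 log2 in these 5277 members and 0.44 in the 619 with 1 peak in some libraries and more in others, and relative to reference regions of the same kind 0.37 and 0.38.

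One member was far taller than all others. At chr6:103626009-103626253, in a region 245 bp wide, heights reached 1565 and 1468 tags in WT against 1840 and 1701 in KO, beside 1600 and 1575 in del-cIDR. On the centred scale it was 0.38 log2 above WT in KO and 0.16 in del-cIDR. The next tallest, at chr6:146756613-146757144, had 405 and 443 tags in WT against 541 and 396 in KO, beside 380 and 406 in del-cIDR. The third, at chr6:3201352-3201611, had 377 and 449 in WT against 445 and 352 in KO, beside 452 and 407 in del-cIDR, and its KO minus WT difference of 0.098 log2 was below that of the chromosome. The other two were both close to 950 bp wide and had larger differences. At chr6:136804556-136805505 there were 327 and 350 tags in WT against 557 and 419 in KO, beside 314 and 315 in del-cIDR, or 0.67 log2 for KO minus WT. Next came chr6:113283256-113284203 with 285 and 341 in WT against 559 and 423 in KO, beside 315 and 275 in del-cIDR, or 0.80 log2.

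All of the 5 widest members were higher in KO than in WT after centring, by 0.41 to 1.20 log2. The widest, at chr6:148845945-148848410, spanned 2466 bp and had 116 and 128 tags in WT against 180 and 118 in KO, beside 124 and 117 in del-cIDR. The second, at chr6:51445832-51448216, had 147 and 156 tags in WT against 238 and 188 in KO, beside 162 and 157 in del-cIDR. The third, at chr6:39182041-39184397, had 45 and 63 in WT against 93 and 80 in KO, beside 47 and 50 in del-cIDR. At chr6:108635727-108638042 the 3 genotypes were apart, with 62 and 59 tags in WT against 113 and 92 in KO, beside 43 and 50 in del-cIDR. At chr6:89338144-89340311 both mutants were above WT, with 29 and 34 tags in WT against 93 and 45 in KO, beside 42 and 38 in del-cIDR.

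Just outside the rule were the 1294 regions of chromosome 6 called in 5 of the 6 libraries. Their median height was 13.8 tags and their median width 359 bp, near the median of 12.7 tags of the 612 lowest members. The library without the call was WT replicate 1 in 7.73%, WT replicate 2 in 6.88%, KO replicate 1 in 7.57%, KO replicate 2 in 21.1%, and del-cIDR replicates 1 and 2 in 28.0% and 28.7%. On chromosomes 1 to 5 the same shares were 6.22%, 6.29%, 16.6%, 37.6%, 15.9% and 17.4%. Beside the reference, the missing call lay in del-cIDR in a larger share of the regions and in KO in a smaller one.

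Chromosome 8, with 5667 regions called in all libraries, was the closest to chromosome 6 in KO minus WT and in KO minus del-cIDR. It gave 0.34 ± 0.0050 log2 for KO minus WT, against 0.37 ± 0.0033 on chromosome 6, and -0.14 ± 0.0049 against -0.088 ± 0.0018 for del-cIDR minus WT (SD combined from 2 and 2 libraries). Chromosome 6 was thus further above WT in KO and less far below it in del-cIDR than chromosome 8, by more than these spreads between replicates. Such spreads do not measure how chromosomes scatter, and the difference was not tested. Among the autosomes other than 6, 8 and 11, KO minus WT ran from -0.020 on chromosome 13 to 0.051 on chromosome 19. In del-cIDR minus WT alone, chromosome 12 was closer, at -0.077 ± 0.0051 log2, but its KO minus WT was 0.018 ± 0.012. Chromosome 11 gave 0.11 log2 for KO minus WT and 0.0015 for del-cIDR minus WT.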

How the data were processed

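ATAC-seq peak lists of 6 libraries were analysed, 1 list per library, with groups and replicate numbers taken from the sample titles. The tools named in the submitters' processing notes are MACS2, featureCounts, Picard, BWA, SAMtools and fastp, with build GRCm39. Their versions, settings and any shift of reads to the cut site: not given in the sources used here. The authors deposited, for each peak, a fold ratio of summit over local background, −log10 p and −log10 q, a score, and the summit offset; the values describe a peak within 1 list. Total reads are not analysed here.

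From the deposited fold ratio and −log10 p, the tag height and local background of each peak were solved with the Poisson form that MACS2 uses. In this ratio, 1 tag is added to the summit and to the background. The height was whole within 0.1 tags in 100% of the peaks of every list. Spike-in peaks (sequence dm) were left out. Peaks were merged at 1 bp, and the tallest peak of a region gave its values. Relative heights used chromosomes 1 to 5. Medians over regions were taken per library, then means of 2 libraries with the SD; combined SDs are the root of the summed squares. The centring was tested on simulated heights with known shifts, and the solving of heights on simulated tags. Peak calling, merging and the selection of regions were not simulated. Python 3.11.15, numpy 2.4.6, pandas 2.3.3 and scipy 1.17.1 were used.

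The members, classes and gene lists were chosen with earlier results of these data known. Named regions were the 5 tallest, the 5 widest, the 3 nearest the median KO minus WT difference and, among members averaging 20 tags or more and with no overlap, the 5 highest and 5 lowest for KO minus WT and the 3 highest and 3 lowest for del-cIDR minus WT; the regions from 35 to 37 Mb, those at its edge and the stretch from 61 to 63 Mb were added after their values were seen. The gene lists and cell type markers fixed for this work were not used, since the gene table is of another build. Alternatives were other references, limits, merges and left-out libraries.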

Additional observations from a re-analysis of the deposited data

How the results depend on the processing

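Chromosome 6 heights kept their direction under every alternative run. With the deposited fold in place of height, KO minus WT was 0.092 log2, del-cIDR minus WT -0.030 and KO minus del-cIDR 0.122, with KO above WT in 2167 members; the contrasts by width were 0.096 and 0.070 (KO and del-cIDR, each minus WT), and those between the distal and proximal part -0.0015, which turned the direction for KO, and 0.014. At −log10 q of at least 5, KO minus del-cIDR was 0.449, del-cIDR minus WT -0.085 and its width contrast 0.084. With 1 peak in every library, the width contrasts were 0.32 and 0.090. At 20 tags or more, the differences were 0.384, -0.095 and 0.478, and the width contrast of del-cIDR 0.11. Ratios of chromosome medians gave 0.382, -0.112 and 0.493. A reference of 16 autosomes, which left out chromosomes 6, 8 and 11, gave 0.451 for KO minus del-cIDR. Reference regions of the same width class left width contrasts of 0.069 for KO and -0.024 for del-cIDR, which turned the direction of the latter. A further 2 alternatives were chosen after seeing the data. With reference regions of the same height, del-cIDR minus WT was -0.090, the width contrasts 0.16 and 0.017, and the KO contrast of the distal and proximal part 0.032. Without the members from 35 to 37 Mb, KO minus WT was 0.371 and that contrast 0.030. Except where the construction shows it, the cause was not tested. An overlap of 50% moved none of the values beyond the spread.

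Leaving out 1 library at a time gave 0.365 to 0.367 for KO minus WT, 0.453 to 0.456 for KO minus del-cIDR and -0.0908 to -0.0882 for del-cIDR minus WT. Counts without overlap were 4014 to 4048 for KO above WT (68.0% to 68.6% of the members, 43.3% to 44.2% over all regions) and 2607 to 2762 for del-cIDR below WT (44.1% to 46.8%, and 35.3% to 37.0%); fewer libraries had to be cleared, in all regions alike. Width contrasts were 0.287 to 0.319 and 0.0781 to 0.0891. The contrasts between the distal and proximal part were 0.0329 to 0.0437 for KO and, for del-cIDR, -0.0023 (without del-cIDR replicate 2, a turned direction) to 0.0143. No paired analysis was possible because the results come from no test. Differences between libraries of the same replicate number were 0.367 and 0.368 for KO minus WT, and -0.087 and -0.090 for del-cIDR minus WT. A reference matched on GC content was not run, since no genome of build GRCm39 was used. Heights near the calling limit of a list limit what can be seen in low regions.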

Other observations

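The regions of chromosome 6 that were not called in all libraries had their own pattern. Of the 15876 regions, 480 (3.02%) had calls from the pair of KO libraries alone, against 0.899% of the merged regions of chromosomes 1 to 5. Regions called in both WT and both KO libraries and in neither del-cIDR library numbered 325 (2.05%), against 1.005%. Regions called in both WT and both del-cIDR libraries and in neither KO library numbered 149 (0.938%), against 2.44%. Regions called in both WT libraries alone numbered 302 (1.90%), against 2.77%, and those in both del-cIDR libraries alone 27 (0.170%), against 0.504%. The 28 regions of both mutants without WT (0.176%) were as frequent as on the reference (0.188%). These counts come from the same lists as the heights and are not separate support.

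The number of peaks on chromosome 6 was 11051 and 10516 in WT. It was 11354 and 10347 in KO, and for del-cIDR 8569 and 8517. WT and KO thus overlapped in number, although the KO lists as a whole were shorter, and chromosome 6 made up 5.69% ± 0.0080 of the WT peaks, 6.88% ± 0.021 of the KO peaks and 5.46% ± 0.046 of the del-cIDR peaks (SD, n = 2).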
